A study of Mus musculus with 12 samples.

Results

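Serum amyloid A and other secreted defense genes were followed in mammary tumors of PyMT mice: Saa1, Saa2, Saa3, Lcn2, Ltf and Hp, 6 of the 21960 genes listed. The genes were chosen from results of these data, in which Saa1 and Saa2 were among the 5 genes called between DOX/IgG1 and IgG1 tumors. Why each of the other 4 members was taken is not recorded. Values of that comparison are therefore given as a description only, for all 6 genes. The tumors came from female C57BL/6 mice carrying the polyoma middle T oncogene under the MMTV promoter, which drives it in the mammary epithelium, so that tumors arise on their own in the mammary glands. Whole snap-frozen tumors were profiled by total RNA sequencing in 4 groups of 3. IgG1 tumors received an isotype control antibody, and anti-PD-1 tumors an antibody that blocks the PD-1 checkpoint receptor. In both groups treatment began once a tumor measured 0.6 cm across, with a first dose of 20 mg/kg and later doses of 10 mg/kg. DOX/IgG1 and DOX/anti-PD-1 tumors received weekly doxorubicin (DOX), a DNA-damaging chemotherapeutic, at 5 mg/kg, followed one day later by 10 mg/kg of the same antibodies, starting at 1 cm. Doxorubicin cannot be told apart from starting size, first antibody dose and schedule in these groups. Mice with this transgene can bear tumors once they are 8 weeks old, and the ages at treatment and sampling were not given in the sources used here. Each library was taken as 1 tumor. Values are TPM, the share of each transcript among all transcripts, scaled for gene length, and the read depth behind them is unknown.

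Serum amyloid A proteins are small apolipoproteins that the liver releases in large amounts when interleukin-6, interleukin-1 and tumor necrosis factor signal through STAT3, C/EBP and NF-kB factors. Epithelia and phagocytes can also make them. Saa3 is known as the form made outside the liver in mice. Lcn2 (lipocalin 2) withholds iron from bacteria by binding their siderophores, Ltf (lactoferrin) binds iron itself and is secreted into milk and stored in neutrophil granules, and Hp (haptoglobin) captures free hemoglobin.

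The DOX/IgG1 tumor of replicate 1 stood apart from the other libraries before any comparison. Its mean correlation with the other tumors over all genes was 0.937, the lowest of the 12, against 0.943 to 0.960 for the others. Its column header, unlike the rest, carried the word test. It listed 8104 genes at 0, the most of any tumor. Values of the members that rest on it are given with and without it. Epcam, which marks epithelium, was present in every tumor at 418 to 954 TPM.

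The 6 genes spanned a wide range of levels. Lcn2 was the most abundant member in 11 of 12 tumors and ranked 9 among all listed genes by mean TPM, and Ltf ranked 22. Saa1 ranked 1089, Hp 2674 and Saa2 4187. Saa3 was the lowest member in all 12 tumors, with at most 8.93 TPM and 2 tumors at 0. Saa4, the constitutive member of the family, was listed at 0 in all 12.

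**Figure D1:**
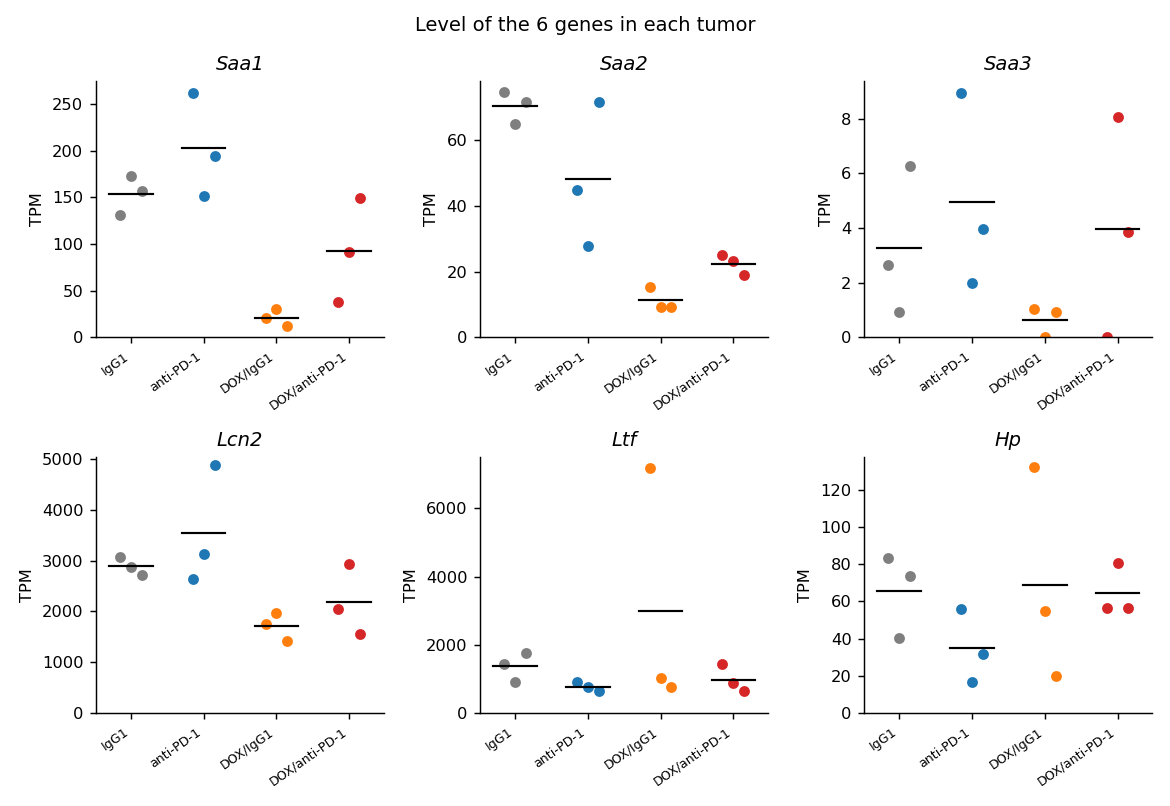
TPM of each of the 6 genes (vertical axes, linear and starting at 0) in the 4 treatment groups, 1 point per tumor with a bar at the group mean. Saa1 and Saa2 were lowest in the 3 DOX/IgG1 tumors, and 1 DOX/IgG1 tumor stood apart in Ltf at 7185 TPM.

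Saa1 (ENSMUSG00000074115) and Saa2 (ENSMUSG00000057465) are neighbors on chromosome 7 that point away from each other. In the GENCODE annotation of GRCm38, the build that the mm10 alignment used, Saa1 lies at chr7:46740497-46742980 on the minus strand and Saa2 at chr7:46751790-46754313 on the plus strand, with 8809 bases between them. Saa3 (ENSMUSG00000040026) lies in the same cluster at chr7:46711998-46715700. The annotated transcripts of Saa1 and Saa2, of 609 and 606 bases, were identical in 93.9% of aligned positions. Of the 535 windows of 75 bases in the Saa1 transcript, the length of the reads, 25 occurred unchanged in Saa2, and none occurred in Saa3. Reads from these windows have no unique origin, so the separate values of Saa1 and Saa2 are uncertain and their sum is given as well.

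Because both genes of this pair were lowest by mean in DOX/IgG1 and next lowest in DOX/anti-PD-1 tumors, the RefSeq promoters (GRCm38.p6) are shown for Saa1 and Saa2 beside those of Saa3 and Lcn2. Of the 6 genes, 5 had an entry, and Hp had none. Each runs from 250 bases before the start to 50 after it, on the strand of the gene: Saa1 chr7:46742931-46743230 (minus), Saa2 chr7:46751583-46751882 (plus), Saa3 chr7:46715627-46715926 (minus) and Lcn2 chr2:32387690-32387989 (minus). Capitals mark matches to a C/EBP motif (TTGCNNAA) or an NF-kB motif (GGGNNNNNCC), searched on both strands.
Saa1: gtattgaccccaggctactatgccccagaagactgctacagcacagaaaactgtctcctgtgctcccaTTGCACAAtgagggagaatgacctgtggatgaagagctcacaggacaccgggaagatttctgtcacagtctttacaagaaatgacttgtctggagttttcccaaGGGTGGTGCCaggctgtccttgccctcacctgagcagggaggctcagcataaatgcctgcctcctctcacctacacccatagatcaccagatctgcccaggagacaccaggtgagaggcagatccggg
Saa2: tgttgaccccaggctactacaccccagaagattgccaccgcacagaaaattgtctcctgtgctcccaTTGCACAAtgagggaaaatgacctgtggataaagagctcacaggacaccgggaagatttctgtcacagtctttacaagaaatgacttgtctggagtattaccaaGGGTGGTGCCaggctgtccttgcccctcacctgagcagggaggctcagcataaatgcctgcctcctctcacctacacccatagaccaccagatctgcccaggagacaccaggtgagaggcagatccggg
Saa3: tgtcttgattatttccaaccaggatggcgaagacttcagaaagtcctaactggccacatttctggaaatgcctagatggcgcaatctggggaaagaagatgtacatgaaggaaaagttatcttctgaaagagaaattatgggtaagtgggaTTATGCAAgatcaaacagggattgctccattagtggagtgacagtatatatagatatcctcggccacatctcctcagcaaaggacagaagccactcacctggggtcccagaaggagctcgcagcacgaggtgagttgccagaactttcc
Lcn2: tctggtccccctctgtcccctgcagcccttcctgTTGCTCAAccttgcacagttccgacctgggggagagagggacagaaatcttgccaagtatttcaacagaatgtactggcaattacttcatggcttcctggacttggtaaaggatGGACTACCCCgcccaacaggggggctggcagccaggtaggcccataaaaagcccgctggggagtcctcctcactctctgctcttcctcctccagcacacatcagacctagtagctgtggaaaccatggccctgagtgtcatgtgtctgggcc
The Saa1 and Saa2 promoters were identical in 95.3% of aligned positions, against 54.2% for Saa1 and Saa3. Saa1, Saa2, Lcn2 and Ltf each held 1 match to the C/EBP letters and at least 1 to the NF-kB letters. Saa3 held 1 and 0. A STAT motif (TTCNNNGAA) had no match in any of the 5. Among 32851 promoters of this length, 10.8% held the C/EBP letters, 50.8% the NF-kB letters and 8.30% the STAT letters. No marked match overlapped another in the printed sequences. These matches describe letters only.

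With anti-PD-1 in both groups, both Saa1 and Saa2 were lower with doxorubicin in all tumors. This comparison shares no tumor with DOX/IgG1 versus IgG1, in which these genes were called. The members were chosen with earlier results of these data known. For every member, whether the choice was independent of DOX/anti-PD-1 versus anti-PD-1 is not known. Saa1 was at 37.3, 91.8 and 149 TPM across DOX/anti-PD-1 tumors, beside 262, 152 and 194 TPM across anti-PD-1 tumors. The highest DOX/anti-PD-1 tumor came close to the lowest anti-PD-1 tumor without reaching it. Saa2 was at 24.9, 23.1 and 19.0 TPM, beside 44.8, 27.8 and 71.5 TPM, again with no overlap. On the log2(TPM + 1) scale the fold change was -1.29 for Saa1 (standard error 0.45, 95% interval -2.31 to -0.28) and -0.98 for Saa2 (standard error 0.34, 95% interval -1.75 to -0.21). Neither was called, since the limma adjusted p was 0.504 for each gene. The Saa1 value was -0.75 without DOX/anti-PD-1 replicate 1, and the Saa2 value -0.65 without anti-PD-1 replicate 3. A gene was called when the adjusted p over all genes was below 0.1 and the absolute log2 fold change above 1. In this bulk tissue, fewer cells that make a transcript and less RNA per cell cannot be told apart.

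The summed TPM of Saa1 and Saa2 gave the same order. It was 62.2, 115 and 168 TPM across DOX/anti-PD-1 tumors and 307, 179 and 266 TPM across anti-PD-1 tumors. The mean TPM with doxorubicin was 45.9% of that without. The log2 fold change, from the means of log2(TPM + 1), was -1.19. An exact permutation test over the tumors (two-sided) returned p = 0.1, its lower limit for groups of 3.

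Of the other members, Hp (ENSMUSG00000031722, chr8:109575128-109579172) was higher with doxorubicin. It was at 56.5, 80.5 and 56.4 TPM across DOX/anti-PD-1, beside 56.0, 16.6 and 31.8 TPM across anti-PD-1 tumors. The groups did not overlap, by less than 1 TPM at the nearest pair. The log2 fold change was 1.01 (standard error 0.40, limma adjusted p = 0.538), so Hp was not called. Without anti-PD-1 replicate 2 the value was 0.58. Lcn2 (ENSMUSG00000026822, chr2:32384633-32388252) was at 2052, 2928 and 1556 TPM across DOX/anti-PD-1, beside 2641, 3133 and 4873 TPM across anti-PD-1 tumors. These groups overlapped, and the log2 fold change was -0.70 (95% interval -1.53 to 0.13). Ltf (ENSMUSG00000032496, chr9:111019271-111042767) and Saa3 overlapped as well, with log2 fold changes of 0.28 and -0.58. Without DOX/anti-PD-1 replicate 1 both turned direction, to -0.03 and 0.33.

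Thus limma called 0 of the 6 members, all of which were tested, in a comparison where it called 0 of 13736 genes (0%), with 1185 genes at an unadjusted p below 0.05. The groups did not overlap for 3 members, Saa1, Saa2 and Hp, against 14.9% of all genes tested in either direction. The members were chosen with earlier results of these data known, so nothing is read from this count.

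**Figure D2:**
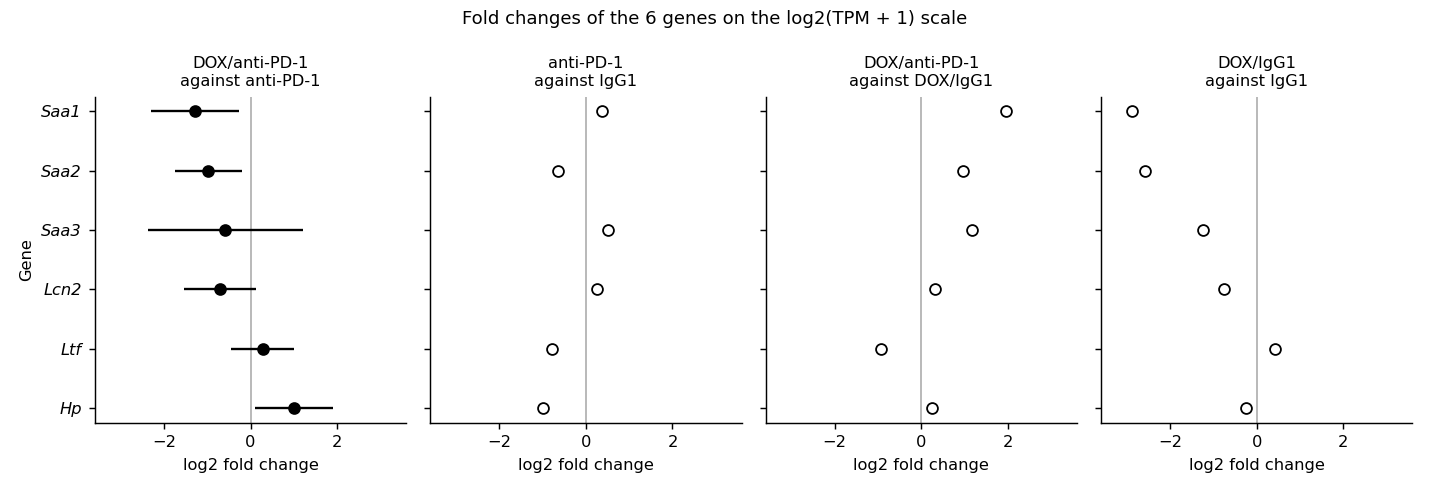
Log2 fold change of the 6 genes on the log2(TPM + 1) scale in the 4 comparisons (horizontal axes), 3 tumors per group. The 95% intervals from limma are drawn for DOX/anti-PD-1 versus anti-PD-1, which shares no tumor with DOX/IgG1 versus IgG1. Saa1 and Saa2 were called in the latter, and why the other members were taken is not recorded. All other comparisons use DOX/IgG1 or IgG1 tumors and are drawn with open points and no interval. Saa1 and Saa2 lay below 0 in both comparisons with doxorubicin against without, and above 0 in DOX/anti-PD-1 versus DOX/IgG1.

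With doxorubicin in both groups, Saa1 and Saa2 were higher in DOX/anti-PD-1 than in DOX/IgG1 tumors. This comparison shares the DOX/IgG1 tumors with the one that led to the choice, so low values there were part of the choice, and its values for the members are given as a description with no test. Saa1 was at 20.3, 30.5 and 12.4 TPM across DOX/IgG1 tumors, all below the 37.3 TPM of the lowest DOX/anti-PD-1 tumor. Saa2 was at 15.3, 9.19 and 9.12 TPM across DOX/IgG1 tumors, all below the 19.0 TPM of the lowest DOX/anti-PD-1 tumor. The log2 fold change was 1.96 for Saa1 and 0.97 for Saa2. The summed TPM was 35.6, 39.7 and 21.5 in DOX/IgG1 tumors, with a log2 fold change of 1.74. Without DOX/IgG1 replicate 1 the log2 fold changes were 1.98 for Saa1 and 1.19 for Saa2.

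Ltf was at 7185, 1022 and 750 TPM across DOX/IgG1 tumors, beside 1428, 865 and 648 TPM across DOX/anti-PD-1 tumors. The difference rested on the DOX/IgG1 tumor that stood apart. With it the Ltf log2 fold change was -0.93, and without it 0.08. Hp was at 132, 55.0 and 20.0 TPM across DOX/IgG1 tumors, the widest spread of Hp in any group. Its log2 fold change was 0.26, and 0.91 without that tumor, within a range of -0.42 to 0.91 with 1 tumor left out. By mean TPM Hp went the other way, at 64.4 in DOX/anti-PD-1 and 69.1 in DOX/IgG1 tumors. Lcn2 overlapped, with a log2 fold change of 0.31. Saa3 was at 1.02, 0 and 0.91 TPM across DOX/IgG1, beside 0, 8.05 and 3.87 TPM across DOX/anti-PD-1 tumors. Over all genes, limma called 0 of 13946 (0%), with 655 at an unadjusted p below 0.05. Groups did not overlap for 2 members, beside 10.2% of genes, from which nothing is read for members chosen partly on these tumors. Without DOX/IgG1 replicate 1, 4 genes were called.

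Without doxorubicin, no member separated anti-PD-1 from IgG1 tumors, which are shared with the comparison that led to the choice, so the values of the members are a description here too. Saa1 was at 132, 173 and 156 TPM across IgG1 tumors, a range that overlapped anti-PD-1, with a log2 fold change of 0.37. Saa2 was at 74.7, 64.9 and 71.5 TPM across IgG1 tumors, and the anti-PD-1 values spread from below them into their range, with a log2 fold change of -0.64. The sum was at 206, 238 and 228 TPM across IgG1 tumors, with a log2 fold change of 0.13. Ltf was at 1433, 897 and 1758 TPM across IgG1, beside 899, 771 and 647 TPM across anti-PD-1 tumors, with a log2 fold change of -0.78. For Hp, at 83.5, 40.5 and 73.7 TPM across IgG1 tumors, it was -0.998. Lcn2 and Saa3 had log2 fold changes of 0.25 and 0.52. Limma called 0 of 13692 genes (0%), with 630 at an unadjusted p below 0.05. The groups overlapped for all 6 members, while they did not overlap for 9.88% of genes.

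Between DOX/IgG1 and IgG1 tumors, given here as a description, the summed TPM across DOX/IgG1 tumors was 14.4% of the IgG1 mean. Saa1 reached 13.7% and Saa2 15.9% of the IgG1 mean. Lcn2 was at 1745, 1967 and 1424 TPM across DOX/IgG1, beside 3062, 2881 and 2716 TPM across IgG1 tumors, also without overlap. Saa3, Ltf and Hp overlapped. Hp had a log2 fold change of -0.25 with all tumors, -0.90 without DOX/IgG1 replicate 1, and up to 0.43 with another tumor left out. Its mean TPM went the other way with all tumors, at 69.1 in DOX/IgG1 and 65.9 in IgG1 tumors. Ltf had a log2 fold change of 0.43 with all tumors and -0.58 without DOX/IgG1 replicate 1. The 2 called members, Saa1 and Saa2, were among 5 called of 13874 genes (0.036%), and the 3 members without overlap stood beside 14% of genes. These shares carry no weight for genes chosen on the comparison. The number of called genes was 122 without DOX/IgG1 replicate 1, 2 without replicate 2, and 0 without replicate 3 or without any 1 of the IgG1 tumors.

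**Figure D3:**
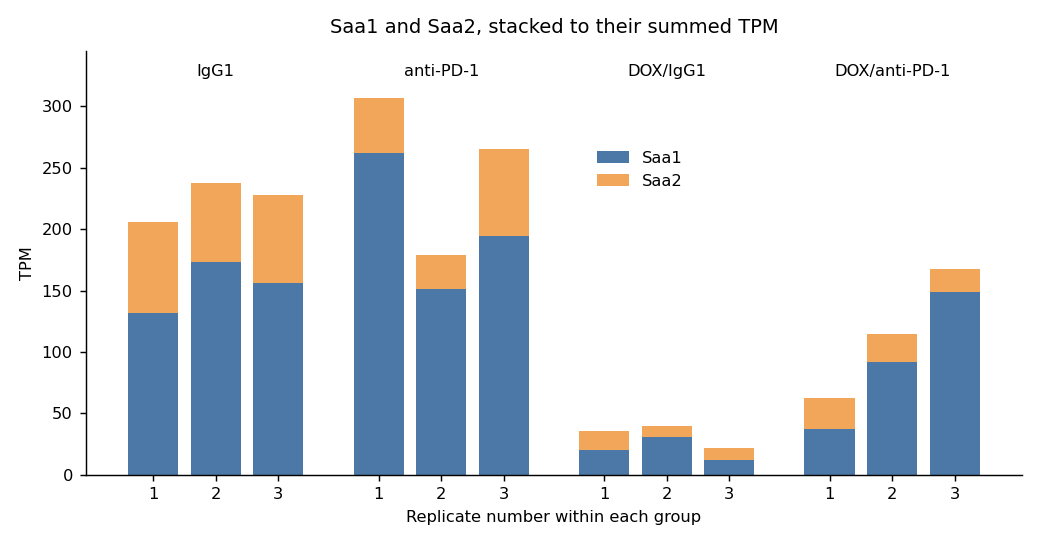
Saa1 and Saa2 in TPM (vertical axis, from 0), stacked to their sum, for each tumor in the 4 treatment groups. The sum lay between 21.5 and 39.7 TPM across DOX/IgG1 tumors and between 179 and 307 TPM across anti-PD-1 tumors.

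By group mean, Saa1 was ordered anti-PD-1 (203 TPM), IgG1 (154 TPM), DOX/anti-PD-1 (92.7 TPM) and DOX/IgG1 (21.1 TPM). The first pair overlapped. The DOX/anti-PD-1 group, with an SD of 55.8 TPM, overlapped IgG1 at its highest tumor. Saa2 ran from IgG1 (70.4 TPM) over anti-PD-1 (48.1 TPM) and DOX/anti-PD-1 (22.3 TPM) to DOX/IgG1 (11.2 TPM), and only IgG1 and anti-PD-1 overlapped among neighbors in that order. Lcn2 followed the order of Saa1, with means of 3549, 2886, 2179 and 1712 TPM, and each neighboring pair overlapped. Saa3 ran from anti-PD-1 (4.97 TPM) over DOX/anti-PD-1 (3.97 TPM) and IgG1 (3.27 TPM) to DOX/IgG1 (0.643 TPM), all neighbors overlapping. Ltf and Hp shared an order from DOX/IgG1 over IgG1 and DOX/anti-PD-1 down to anti-PD-1, and only the last pair of Hp did not overlap. For Hp, the log2 fold changes of DOX/IgG1 versus IgG1 and DOX/anti-PD-1 versus DOX/IgG1 had signs opposite to this order of means. Without DOX/IgG1 replicate 1, the DOX/IgG1 mean was 886 TPM for Ltf and 37.5 TPM for Hp, above anti-PD-1 and below DOX/anti-PD-1 for both genes, while the orders of the other members did not change. Saa1 was above Saa2 in all 12 tumors, and its share of the sum ranged from 57.1% in DOX/IgG1 replicate 1 to 88.7% in DOX/anti-PD-1 replicate 3.

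The genes around the cluster differed in their values. Of 15 genes annotated within 100 kb of the cluster, 10 were listed. Saal1, next to Saa3, had a log2 fold change of 0.23 in DOX/IgG1 versus IgG1, higher without overlap, and 0.02 in DOX/anti-PD-1 versus anti-PD-1. Hps5, which acts in lysosome-related organelles, had 0.02 and 0.07. Gtf2h1, a subunit of transcription factor TFIIH, had 0.09 and -0.37. Ldha, which makes lactate from pyruvate, had -0.38 and -0.68, the latter lower without overlap, as Saa1 and Saa2 were. Tph1, the first enzyme of serotonin synthesis, had -1.24 and -0.99, on this scale the sign of Saa1 and Saa2, and overlapped in both. By mean TPM it was higher in DOX/anti-PD-1 (16.0, range 0.40 to 45.7) than in anti-PD-1 tumors (11.4). Sergef had -1.21 and 0.45. It was at 4.69 to 7.60 TPM in DOX/IgG1 tumors, below all IgG1 tumors (12.2 to 23.0 TPM) and all DOX/anti-PD-1 tumors (12.0 to 15.1 TPM), as Saa1 and Saa2 were, but overlapped in DOX/anti-PD-1 versus anti-PD-1. None of these neighbors was called in any of the 4 comparisons.

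**Figure D4:**
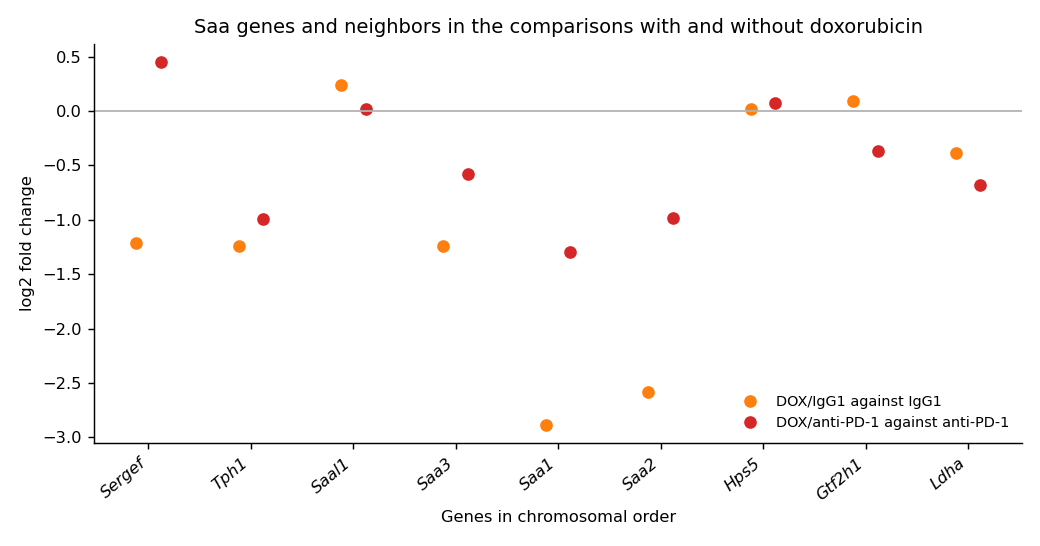
Log2 fold change on the log2(TPM + 1) scale (vertical axis) of listed genes around the Saa cluster, in chromosomal order, for DOX/IgG1 versus IgG1 and DOX/anti-PD-1 versus anti-PD-1. Saa4, at 0 in all tumors, is left out. Saa1 had the lowest value in both comparisons, -2.88 and -1.29.

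Other acute phase proteins held no called gene. For this and the next lists, the share of all tested genes without overlap was 14.9% in DOX/anti-PD-1 versus anti-PD-1 and 14% in DOX/IgG1 versus IgG1, with medians of 0.11 and 0.12. Of 36 genes listed, 22 were tested in DOX/anti-PD-1 versus anti-PD-1, 0 were called, 2 did not overlap, and the median log2 fold change was 0.12 beside 0.11 for all genes. In DOX/IgG1 versus IgG1 the median was 0.02 beside 0.12, and 4 of 20 tested genes did not overlap. Cp (ceruloplasmin), a copper-carrying ferroxidase, was the most abundant at 2749 to 5181 TPM. Agt (angiotensinogen) and Serpina3g, a protease inhibitor, were higher without overlap in both comparisons, Agt by 2.28 and Serpina3g by 1.35 on the log2 scale in DOX/IgG1 versus IgG1. Without DOX/IgG1 replicate 1 the Agt value was 3.0. Lrg1 and A2m were lower in DOX/IgG1 tumors, by log2 fold changes of -1.55 and -0.93. A2m was low, at 0.96, 2.13 and 1.25 TPM across DOX/IgG1, beside 2.54, 3 and 5.73 TPM across IgG1 tumors. The Lrg1 value rested in part on DOX/IgG1 replicate 3, at 11.4 TPM, and was -0.85 without that tumor. The liver pentraxins Crp and Apcs and the iron hormone gene Hamp were at 0 in all 12 tumors.

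Among other secreted defense proteins, 37 of 39 genes were listed and 22 tested in DOX/anti-PD-1 versus anti-PD-1. None was called, 3 did not overlap, and the median log2 fold change was -0.29 beside 0.11 for all genes. In DOX/IgG1 versus IgG1 it was -0.39 over 19 tested genes, of which 4 did not overlap, beside 0.12 for all genes. The list median moved to -0.06 without the expression minimum. Wfdc18, a whey acidic protein family member, was the most abundant at 658 to 3467 TPM. Defb1, a beta-defensin, was at 4.49, 43.4 and 26.5 TPM across DOX/anti-PD-1, beside 0, 2.27 and 0.68 TPM across anti-PD-1 tumors. Wfdc2 was higher without overlap in both doxorubicin comparisons, with log2 fold changes of 1.38 and 1.10. Lyz1, a lysozyme, was lower in DOX/anti-PD-1 (-1.87). It was at 0, 2.71 and 0 TPM there, beside 3.02, 5.02 and 6.53 TPM across anti-PD-1 tumors. Pigr, which carries IgA across epithelia, was lower in DOX/IgG1 (-1.08, and -1.42 without replicate 1), and Ctla2a was higher there (0.94).

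Of the cytokines that induce Saa genes, several were low. Il6 stayed between 0 and 3.77 TPM, Tnf between 2.17 and 9.71 TPM, and Il17a and Il22 were at 0 in all tumors. Il1b was at 24.9, 19.1 and 14.7 TPM across DOX/IgG1 tumors, above the 5.98, 13.8 and 9.84 TPM of IgG1 tumors. Of 26 listed genes of cytokines and receptors, 18 were tested in DOX/anti-PD-1 versus anti-PD-1, 0 were called, 4 did not overlap, and the median log2 fold change was 0.20 beside 0.11. Lif, an interleukin-6 family cytokine, was higher there (1.57), as was the TNF receptor Tnfrsf1a (0.80). In DOX/IgG1 versus IgG1, 2 of 17 did not overlap, among them Il17rc, an interleukin-17 receptor subunit (-1.05). Il11ra1 was the most abundant at 153 to 363 TPM. Osmr, the oncostatin M receptor, ranged from 112 to 257 TPM, Il17ra from 6.30 to 17.9 TPM, and Il22ra1 was below 1 TPM throughout.

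Of the signaling and transcription genes, 25 of 28 listed were tested in DOX/anti-PD-1 versus anti-PD-1. None was called, 7 did not overlap beside 14.9% of all genes, and the median log2 fold change was 0.30 beside 0.11. Stat3, the most abundant at 62.9 to 375 TPM, overlapped in both doxorubicin comparisons and was lowest in DOX/IgG1 replicate 1. Socs3, a STAT3 target that feeds back on it, was at 14.4, 18.3 and 58.5 TPM across DOX/anti-PD-1, beside 10.1, 10.7 and 9.64 TPM across anti-PD-1 tumors. Relb was also higher (1.18), while Cebpd (-0.55) and the interleukin-17 adaptor Traf3ip2 (-0.38) were lower. In DOX/IgG1 versus IgG1, 3 of 25 did not overlap: Irf1 (0.60) and Rela (0.46) were higher and Cebpb (-0.49) lower. Socs3 overlapped there, with a log2 fold change of 0.06. Nfkbiz ranged from 10.9 to 22.8 TPM and Elf3 from 5.86 to 30.0 TPM. The part of the cytokine, receptor, signaling and transcription genes in the values of the members was not tested.

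Receptors and partners of the 6 proteins included genes near absence. Fpr2, a receptor for serum amyloid A, was above 0 in 2 tumors only, and Lrp2, an uptake receptor for lipocalin 2, stayed at or below 0.10 TPM. Slc22a17, another lipocalin 2 receptor, was at 4.98 to 15.2 TPM and higher in DOX/IgG1 than in IgG1 tumors (0.89), as was Tlr4 (0.77). Cd163, the haptoglobin-hemoglobin receptor of macrophages, ranged from 5.74 to 12.2 TPM, Hmox1, which degrades heme, from 3.27 to 34.9 TPM, and Mmp9, which lipocalin 2 binds, from 0 to 8.42 TPM. In DOX/anti-PD-1 versus anti-PD-1, 2 of 12 tested genes did not overlap, Cd36 (1.49) and Lrp1 (1.14), and 0 were called. The most abundant gene, the LPS coreceptor Cd14, reached 357 TPM across DOX/IgG1 replicate 1 and 51.9 to 157 TPM elsewhere. Of 18 iron handling genes, 15 were tested, 0 were called and 2 did not overlap in DOX/anti-PD-1 versus anti-PD-1, Steap3 (1.09) and Aco1 (0.41). Trf (transferrin) was the most abundant at 2452 to 7118 TPM.

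Of the neutrophil genes 9 of 18, and of the hepatocyte genes 8 of 12, stayed under 1 TPM in all tumors. Of the 18 neutrophil genes, 6 were at 0 in all 12 tumors, among them Ly6g, Camp and Elane, and the summed level ranged from 7.88 to 29.3 TPM. It was higher without overlap in DOX/anti-PD-1 (20.8, 29.3 and 21.4 TPM) than in DOX/IgG1 tumors (10.9, 7.88 and 13.4 TPM). Of 4 neutrophil genes tested there, 1 did not overlap, Prtn3, beside 10.2% of all genes. Prtn3 was at most 6.6 TPM, and Itgb2l and S100a8 overlapped. Ngp reached at most 1.37 TPM, Mpo 1.75 TPM, S100a8 9.33 TPM and S100a9 2.22 TPM, and Itgb2l was the most abundant. Of 12 hepatocyte genes, 4 were at 0 throughout, including Apoa1. Alb was at 93.6 TPM for DOX/anti-PD-1 replicate 2 and at most 3.28 TPM elsewhere, and Cyp2e1 was the most abundant of the list. The summed hepatocyte level was 30.1, 102 and 14.8 TPM across DOX/anti-PD-1 and 2.08, 4.03 and 9.82 TPM across anti-PD-1 tumors. That separation needed the 1 Alb value. Cyp2e1, the only gene of the list tested, overlapped, and the list median moved to 0.12 without the expression minimum.

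Milk protein genes held no called gene. The summed level of the 9 genes was 1108, 3252 and 2583 TPM across DOX/IgG1 tumors and 7524, 4815 and 8569 TPM across IgG1 tumors, without overlap. It was 6070, 8439 and 2978 TPM across DOX/anti-PD-1 and 6511, 10396 and 7457 TPM across anti-PD-1 tumors, with overlap. Csn3 made up 91.6% of the list, so the sums mostly show this gene, and 4 of 8 tested genes were lower without overlap in DOX/IgG1 versus IgG1. In DOX/anti-PD-1 versus anti-PD-1 the list had no common direction. There 2 of 8 were lower without overlap and 4 of 8 had values above 0. The list median was -0.07, and 0.03 without the expression minimum. In DOX/anti-PD-1 versus DOX/IgG1, 4 of 8 were higher without overlap, beside 10.2% of all genes, and 7 had values above 0. The list median there was 1.69, beside -0.04 for all genes. Saa1 and Saa2 were likewise lower in DOX/IgG1 versus IgG1 and higher in DOX/anti-PD-1 versus DOX/IgG1. The summed salivary gland genes were at 67.6, 119 and 141 TPM across DOX/IgG1 and at most 25.3 TPM across IgG1 tumors. Of 8 tested there, 3 did not overlap, beside 14% of all genes. Bpifa2 and Smr3a were called higher, 2 of the 5 called among 13874 genes (0.036%). Both were at 0 in all 3 IgG1 tumors and passed the expression minimum only through DOX/IgG1 tumors, so nothing is read from these calls. Amy1 was the most abundant of the 11 listed genes. The summed adipocyte genes were higher in DOX/anti-PD-1 (374 to 1135 TPM) than in anti-PD-1 tumors (212 to 328 TPM), with 6 of 11 genes without overlap and Cfd the most abundant. Fibroblast genes were at 1072 to 1582 TPM and 687 to 936 TPM in the same groups, led by Col1a1, and basal epithelial genes at 482 to 666 TPM and 238 to 362 TPM, led by Acta2. No gene of these 3 lists was called. The part of these lists, and of the milk protein, salivary gland, neutrophil and hepatocyte lists, in the values of the members was not tested.

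**Figure D5:**
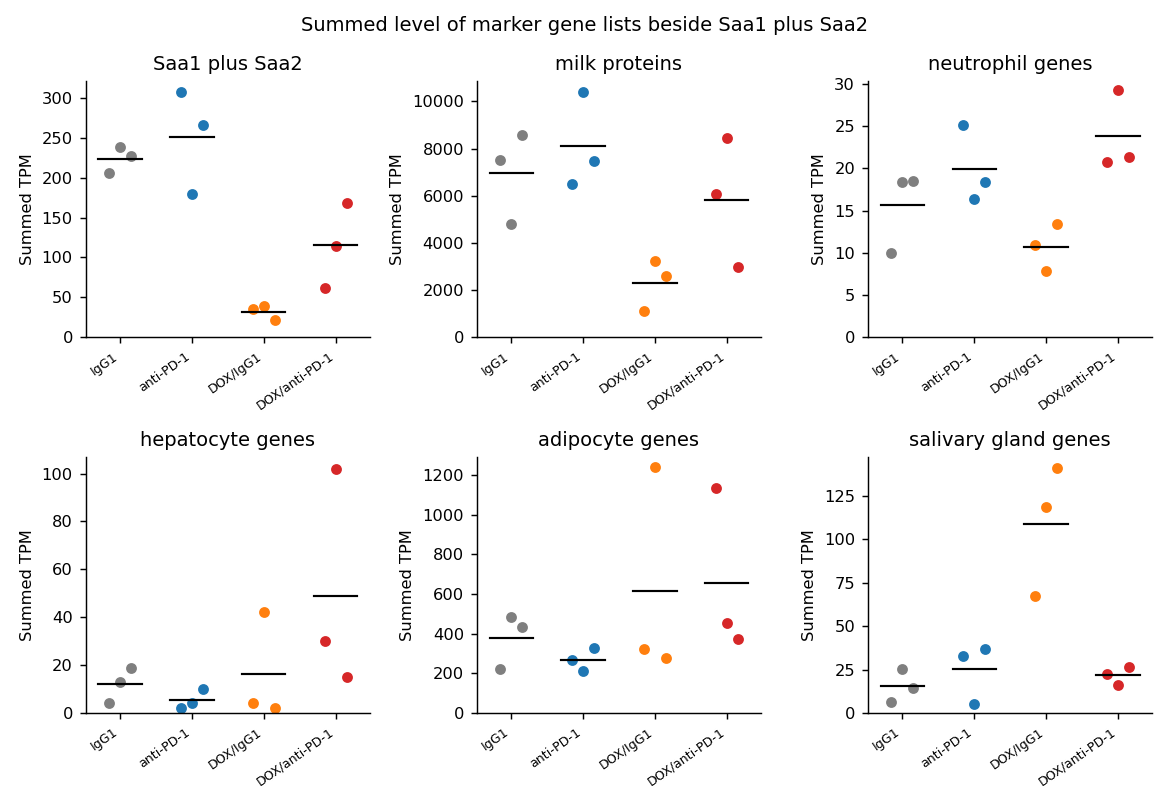
Summed TPM (vertical axes, from 0) of Saa1 plus Saa2 and of 5 marker gene lists in the 4 groups, 1 point per tumor with a bar at the mean. The summed milk protein genes had their lowest mean in DOX/IgG1 tumors, at 1108 to 3252 TPM, as did the Saa sum, and the summed salivary gland genes had their highest.

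Sums of the remaining marker lists overlapped in both doxorubicin comparisons. Of the 14 luminal genes, Epcam alone did not overlap in DOX/IgG1 versus IgG1, where its log2 fold change was -0.87, and 5 of the 14 had values above 0. In DOX/anti-PD-1 versus anti-PD-1, 4 of the 14 were higher without overlap, beside 14.9% of all genes, and 9 had values above 0. The part of the luminal genes in the values of the members was not tested. Macrophage and monocyte genes, led by Lyz2, ranged from 579 to 1071 TPM, leukocyte genes, led by Ptprc, from 117 to 276 TPM, luminal genes, led by Epcam, from 3109 to 5259 TPM, endothelial genes, led by Pecam1, from 75.7 to 161 TPM, and skeletal muscle genes, led by Acta1, from 0.81 to 1009 TPM.

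Across the 12 tumors, the genes most like each member were taken from 13638 genes by Pearson correlation of log2(TPM + 1). The 12 values share 4 treatment groups, so group differences enter each correlation. For Saa1 the closest were Zfp395 (r = 0.93, rho = 0.92), Xbp1 (r = 0.92, rho = 0.87), a transcription factor of secretory cells, and Pdia5 (r = 0.88, rho = 0.63). For Saa2 they were Spcs2 (r = 0.87, rho = 0.86), a signal peptidase subunit, Fam20a (r = 0.87, rho = 0.86) and Edem3 (r = 0.87, rho = 0.85). Spcs2 was also first for Lcn2 (r = 0.94, rho = 0.94), ahead of Tcn2 (r = 0.91, rho = 0.83) and the signal peptidase subunit Sec11c (r = 0.89, rho = 0.88). Saa3 was nearest to Gramd1b (r = 0.86, rho = 0.82), Myo1d (r = 0.83, rho = 0.88) and Srebf1 (r = 0.80, rho = 0.72). Without the 2 tumors farthest from the Saa3 median, r was 0.75, 0.74 and 0.71. Ltf was nearest to A430105I19Rik (r = 0.94, rho = 0.76), Rasl11b (r = 0.91, rho = 0.78) and Gm12185 (r = 0.91, rho = 0.57). Without the 2 tumors farthest from the Ltf median these fell to r = 0.83, 0.68 and 0.53. Hp was nearest to Tmem63b (r = 0.95, rho = 0.92), Sidt1 (r = 0.88, rho = 0.78) and Brap (r = 0.88, rho = 0.71). Without the 2 tumors farthest from the Hp median, r was 0.90, 0.70 and 0.76. Among the members, Saa1 and Saa2 had r = 0.80 (rho = 0.74), Lcn2 and Saa2 r = 0.78 (rho = 0.76), Lcn2 and Saa1 r = 0.70 (rho = 0.60), and Ltf and Hp r = 0.69 (rho = 0.71). Without the 2 tumors farthest from the median of Saa1, Lcn2, Lcn2 and Hp in turn, r was 0.75, 0.69, 0.57 and 0.58.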

How the data were processed

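RNA from 12 PyMT tumors, 3 per treatment group, was measured by single-end total RNA sequencing. The deposited values were log2(TPM + 1) per gene with decimal commas. Per the labels and the methods of the study, the authors trimmed reads with skewer, aligned them to mm10 with STAR and estimated TPM with RSEM. The versions were not given in the sources used here. Logarithms were undone and TPM rounded to 0.01. Sums over the listed genes were 609418 to 725506 TPM, and no pair of files was identical. No counts were used, so the depth is unknown.

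Groups were compared with limma 3.58.1 in R 4.3.3 (lmFit, then eBayes with its trend option, two-sided p-values) on log2(TPM + 1), which understates changes of low genes. Genes at 1 TPM or more in at least 3 of the 6 tumors compared were tested, with Benjamini-Hochberg adjustment over all of them. The fit was tested on simulated data. The summed TPM of Saa1 and Saa2 was compared by an exact permutation test (scipy 1.17.1). The tests planned for the members in the 2 comparisons that share tumors with the choice were run, and their p-values are left out because of that sharing. Nothing says that tumors of a group came from separate mice, so p-values measure the spread between these tumors.

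The members and gene lists were chosen with earlier results of these data known. The promoter motifs were chosen after the promoter sequences and the values had been seen. In the comparison of DOX/IgG1 with IgG1, alternatives count members without overlap. Genes were named by rule: the members, listed genes within 100 kb of the Saa cluster, 24 genes of their induction, binding and neutrophil source, the most abundant gene of each list, up to 2 with the highest and lowest fold change without overlap per functional list and doxorubicin comparison, called genes on a list, and the 3 most correlated with each member among genes at 1 TPM or more in at least 6 tumors. Alternatives were a pseudocount of 0.1, no expression minimum, a minimum of 5 TPM, 1 fit on all 12 tumors, the replicate number as a block, median of ratios scaling, no trend, 1 summed row for Saa1 and Saa2, and leaving out each tumor.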

Additional observations from a re-analysis of the deposited data

Results flagged for a closer look

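Among the 75 named genes, 2 had groups without overlap in opposite directions for the same treatment in both arms. Some genes were named because their groups did not overlap in a doxorubicin comparison, Steap3 in both of them. The share among all tested genes was not computed, so nothing is read from this count. Lrg1, a leucine-rich acute phase glycoprotein, had a log2 fold change of -0.59 in anti-PD-1 versus IgG1 and of 1.36 in DOX/anti-PD-1 versus DOX/IgG1. The latter was 0.66 without DOX/IgG1 replicate 3, and the former -0.25 without anti-PD-1 replicate 2. Steap3, a ferrireductase, had -0.57 in DOX/IgG1 versus IgG1 and 1.09 in DOX/anti-PD-1 versus anti-PD-1. Neither gene was called in these comparisons, and the difference between the arms was not tested.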

How the results depend on the processing

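No member was called in DOX/anti-PD-1 versus anti-PD-1 under any alternative run. Saa1 and Saa2 each kept their direction. Leaving out 1 tumor gave log2 fold changes in DOX/anti-PD-1 versus anti-PD-1 of -1.74 to -0.75 for Saa1 and -1.31 to -0.65 for Saa2, -1.52 to -0.81 for their sum and 0.58 to 1.43 for Hp. It turned the direction of these values: Ltf (-0.0321 to 0.54) and Saa3 (-1.26 to 0.33) in DOX/anti-PD-1 versus anti-PD-1, Lcn2 (-0.0031 to 0.44) and the Saa sum (-0.0335 to 0.35) in anti-PD-1 versus IgG1, Ltf (-1.54 to 0.0847) and Hp (-0.42 to 0.91) in DOX/anti-PD-1 versus DOX/IgG1, and Ltf (-0.58 to 1.05) and Hp (-0.90 to 0.43) in DOX/IgG1 versus IgG1. The cause was not tested. With 1 tumor left out, the weakest values in DOX/anti-PD-1 versus anti-PD-1 were 0.80 for Wfdc2, 0.92 for Cd36 and 0.63 for Socs3. They were 0.50 for Tnfrsf1a, -0.24 for Traf3ip2 and -0.45 for Lcn2. In anti-PD-1 versus IgG1 they were 0.17 for Saa1, -0.31 for Saa2, 0.04 for Saa3 and -0.57 for Hp. In DOX/anti-PD-1 versus DOX/IgG1 they were 0.07 for Lcn2 and 0.49 for Saa3.

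The number of genes called was 0 in DOX/anti-PD-1 versus anti-PD-1, anti-PD-1 versus IgG1 and DOX/anti-PD-1 versus DOX/IgG1, and ranged from 0 to 4 in each when 1 tumor was left out. In DOX/IgG1 versus IgG1 it was 5, and 0 to 122 with 1 tumor left out. Without the mean-variance trend it was 3, 1, 3 and 13 in the order named, and in DOX/anti-PD-1 versus DOX/IgG1 it was 2 in 1 fit on all 12 tumors and 3 with median of ratios scaling. That scaling shifted the median of all genes by -0.12 in DOX/anti-PD-1 versus anti-PD-1 and -0.11 in DOX/IgG1 versus IgG1.

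Correlations of same-numbered deviations ranged from -0.10 to 0.13. The labels do not say whether the replicate numbers pair tumors, and these correlations cannot decide it. With the replicate block, 2 genes were called in DOX/IgG1 versus IgG1 in place of 5, and 0 in the other comparisons.

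Depth is unknown, so the counting error, largest for low values such as those of Saa3, could not be estimated. With a pseudocount of 0.1 the Saa3 log2 fold change in DOX/IgG1 versus IgG1 was -2.43 in place of -1.24.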
